A study of Mus musculus with 4 samples.

Results

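The genes described here encode the machinery of DNA replication and S phase, 47 genes chosen by name from 55414 genes in the count files, after Ensembl identifiers without version were matched to symbols. All 47 were found, and all 47 were among the 19912 genes that passed a filter on low counts. They fall into 9 role groups, from the MCM helicase to histone supply. The study sequenced RNA of primary mouse neural stem cells, prepared from cortex at embryonic day 14.5, in a wild type group and a Mettl4 knockout group of 2 libraries each. Cells of both groups were expanded as floating spheres in medium with EGF and basic FGF and then plated as an adherent layer. The labels name neither the method of the knockout nor the part of Mettl4 that it removes. Nothing in the labels ties a library to an embryo or culture of its own, so p-values cover only the variation among the 4 libraries, part of which may be technical.

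Replication starts from origins that are marked in G1 by the origin recognition complex, which with Cdc6 and Cdt1 loads the MCM ring onto DNA. Cdc45 and the GINS complex then turn that ring into a moving helicase, and polymerases, the sliding clamp PCNA and its loader copy the strands. Many of these genes are switched on by E2F transcription factors as cells leave G1, and expanding neural stem cell cultures transcribe them strongly. The title of the series names proliferation as one of its subjects, and the RNA level of these genes is one readout of how much of a culture is copying DNA. In bulk RNA, a smaller share of cells in S phase and less RNA in each such cell cannot be told apart.

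The libraries held between 12812064 and 19310668 counts. The targeted gene was lower in both libraries labelled knockout: in CPM, counts scaled to the library size with TMM factors, Mettl4 read 15.6 and 17.6 there against 63.8 and 66.6 in the wild type pair. All 10 neural stem cell markers examined were detected, among them Sox2 at 174 to 213 CPM over the 4 libraries. Lists of neuronal, oligodendrocyte lineage and astrocyte markers summed to 1023 to 1358, 508 to 598 and 262 to 420 CPM. Most of the first sum was Map2, at a mean of 1178 CPM. The other neuronal markers had means from 0.117 (Stmn2) to 7.71 CPM (Syt1). Olig2, at a mean of 480 CPM, made up most of the second, where the others ran from 1.90 (Sox10) to 31.4 CPM (Cspg4). Aldh1l1 and Slc1a2, at 178 and 118 CPM, led the third, while Gfap and S100b were at 3.38 and 3.68 CPM. Markers of mesenchyme summed to 3.12 to 9.36 CPM, of microglia to 6.28 to 7.33 CPM with Tmem119 at 0 counts, of endothelium to 2.34 to 3.35 CPM, and of red blood cells to 8.41 to 10.7 CPM. Wild type replicate 1 differed from the other libraries in Y-linked RNA, with 626 counts of Ddx3y against 0 in each of the other 3, and in Xist, the RNA that silences an X chromosome in female cells, with 3784 counts against 54699 to 65857. Knockout replicate 2 stood apart in Pdk1, a kinase that restrains pyruvate oxidation, at 39.6 CPM against 7.99 to 11.9 CPM in the others. The part of these library differences in the values below was not tested, and values without single libraries are given.

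No replication gene passed the test for a difference between the genotypes. Of the 47 genes, 0 passed an adjusted p of 0.05 in the edgeR quasi-likelihood test (Benjamini-Hochberg over all genes tested), and 0 had an unadjusted p under 0.05. Over all genes tested, the same thresholds took 0.00502% (1 gene, Mettl4) and 2.77%. DESeq2 and limma-voom also called 0 of the 47, with 0 at an unadjusted p under 0.05. The log2 fold changes, knockout minus wild type, ran from -0.23 for Rrm2 to 0.33 for Rpa3, with a median of 0.04 beside 0.00 over all genes tested. The typical size of the difference, the median without regard to sign, was 0.0652 for the replication genes and 0.150 for all genes tested. The replication genes were also measured more precisely: their median standard error was 0.16 against 0.25, and their median level 69.3 CPM against 11.1 CPM.

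**Figure D1:**
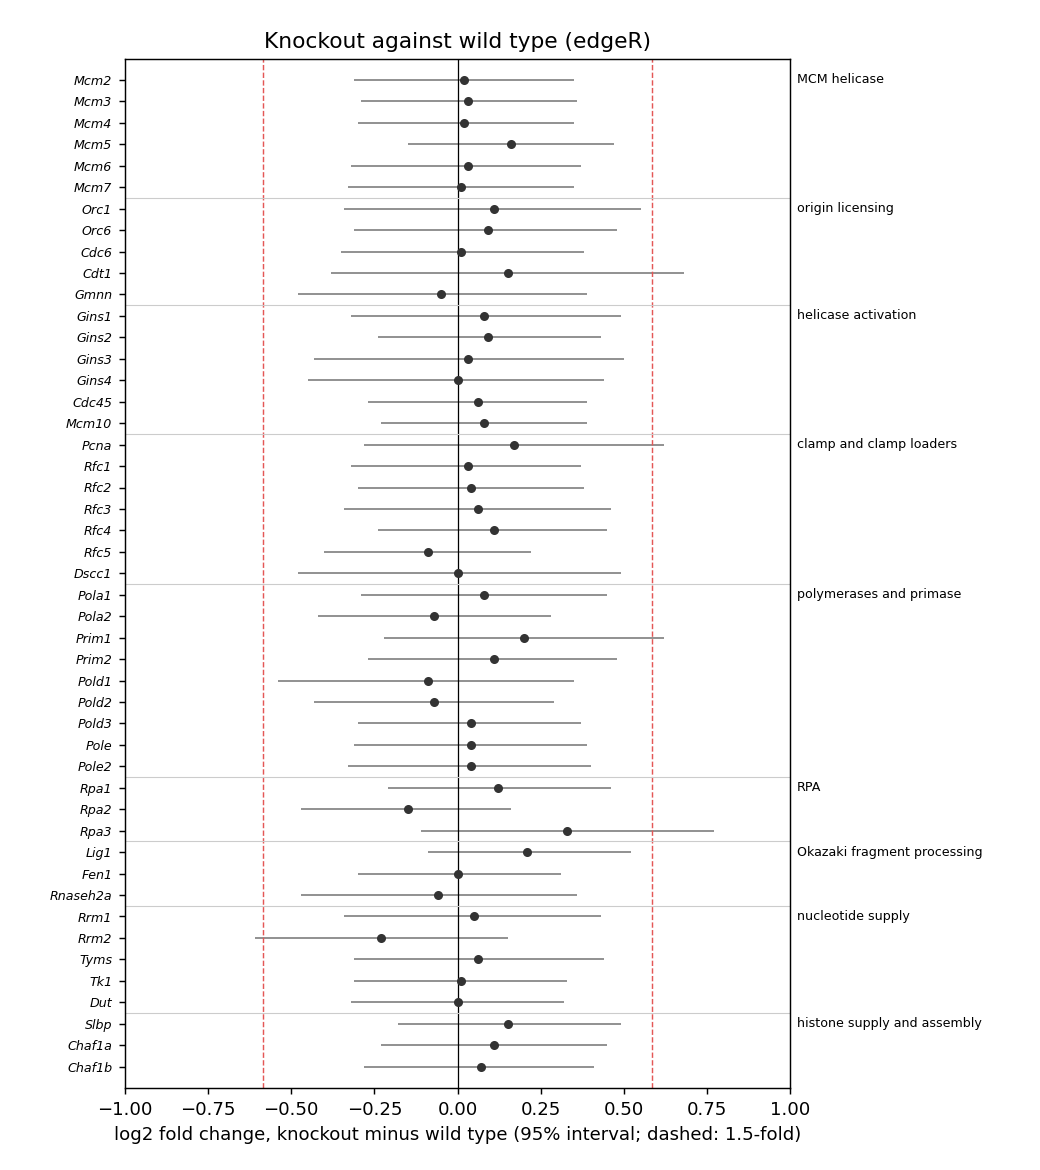
Log2 fold change of each replication gene, knockout minus wild type, with its 95% interval from the edgeR fit (x axis), by role group (y axis). Every interval covers 0, and 42 of 47 lie between the dashed lines at 1.5-fold lower and 1.5-fold higher.

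The intervals show how large a difference could have gone unseen. For 47 of 47 genes the 95% interval lay inside 2-fold in either direction, and for 42 it lay inside 1.5-fold. The 5 exceptions were Cdt1, Pcna, Prim1, Rpa3 and Rrm2, and the outermost bounds were -0.61 for Rrm2 and 0.77 for Rpa3 on the log2 scale. Over all genes tested, 67.5% of intervals lay inside 2-fold and 35.5% inside 1.5-fold. Fen1 was the single gene with an interval inside 1.25-fold.

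Although none passed the test, 38 of the 47 fold changes were above 0, beside 49.7% of all genes tested. Between the knockout libraries, that lean was present only in knockout replicate 2. It lay above the wild type mean in 36 of the 47 genes (46.7% of all genes tested) and was the highest of the 4 libraries in 31 (28.7% of all genes). Knockout replicate 1 lay below the wild type mean in 33 of the 47 genes (50.3% of all genes). Both knockout libraries were on the same side of the wild type mean for 13 genes, with no share over all genes tested to set beside this count. The median log2 shift from the wild type mean was -0.06 in knockout replicate 1 and 0.12 in knockout replicate 2. Replicate 2 was above replicate 1 in both genotypes for 28 of the 47 genes (30.5% of all genes tested). Without wild type replicate 1, 28 of 47 fold changes were positive (52.0% of all genes) and the median was 0.03. Without wild type replicate 2, 32 were positive (50.4%) and the median was 0.09. In the fit without knockout replicate 2, 14 of 47 fold changes were positive (49.8% of all genes) and the median was -0.06. In the fit without knockout replicate 1, 36 were positive (46.7% of all genes) and the median was 0.12, beside -0.03 over all genes tested. The direction of the list thus depended on which knockout library was kept. In the latter fit 3 of the 47 genes, Prim1, Rpa3 and Rrm2, had an unadjusted p under 0.05, beside 8.32% of all genes tested, and 0 were called.

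**Figure D2:**
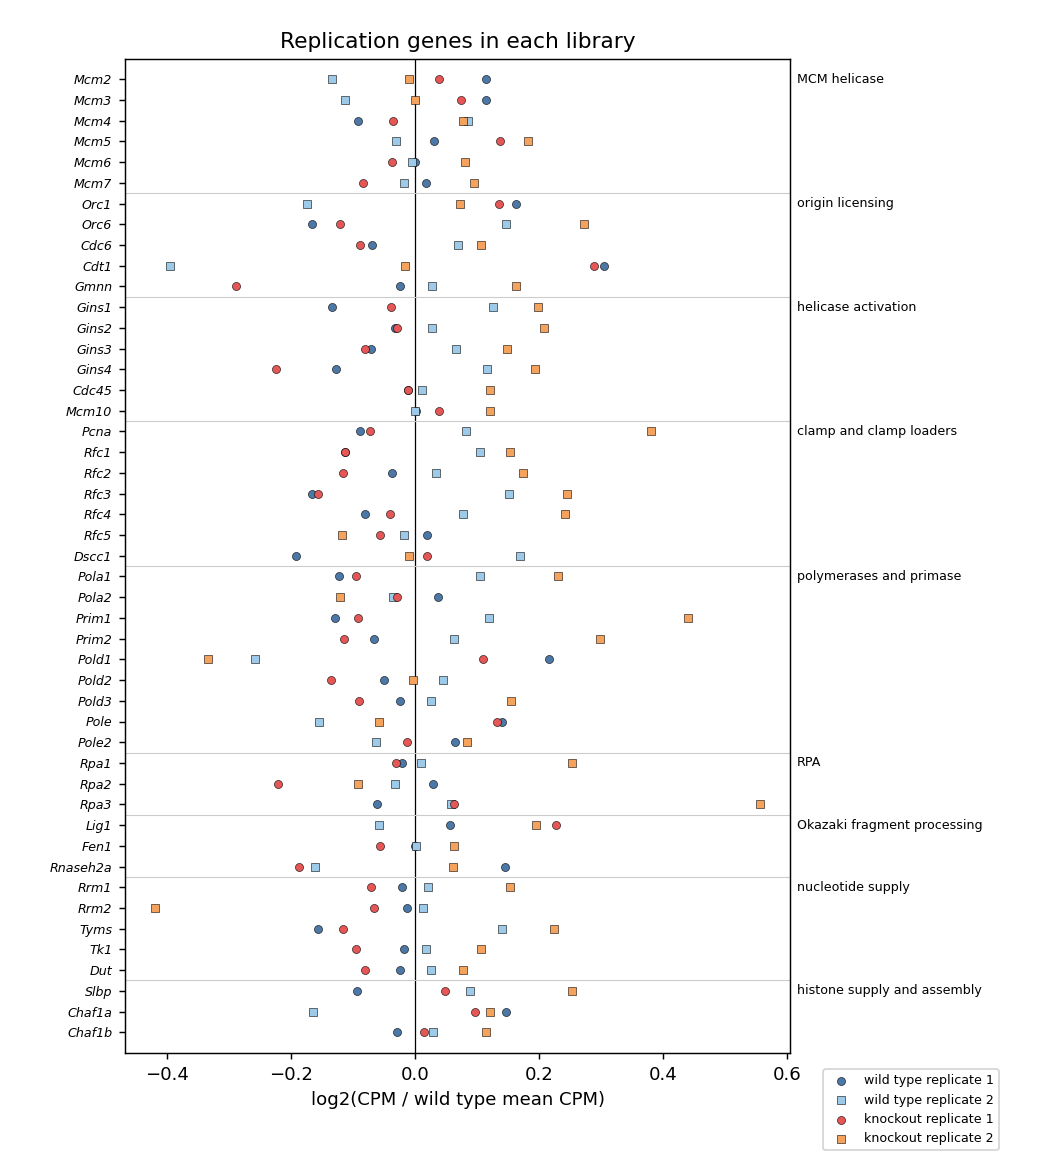
Level of each replication gene in the 4 libraries as log2 of CPM over the wild type mean (x axis), by role group (y axis). Knockout replicate 2 is the rightmost point for 31 of 47 genes, while knockout replicate 1 lies left of 0 for 33.

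Groups that did not overlap were no more frequent here than elsewhere. Both knockout libraries lay above both wild type libraries for 4 genes, Mcm5, Mcm10, Rpa3 and Lig1, beside 12.5% of all genes tested. Both lay below for 3, Rfc5, Rpa2 and Rrm2, beside 14.9%. For 43 of 47 genes the difference between the group means was smaller than the larger gap between libraries of the same genotype (82.9% of all genes tested).

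The 6 subunits of the MCM ring, the helicase that unwinds the template, showed no difference past the test. Their fold changes were 0.01 to 0.03 for 5 of them and 0.16 for Mcm5. Mcm6, the most abundant of them, read 276 and 275 CPM in wild type cells and 269 and 292 CPM in the knockout libraries. The knockout libraries fell on either side of the wild type pair, and the log2 fold change was 0.03 with a 95% interval from -0.32 to 0.37. Mcm5 read 144 and 138 CPM in wild type cells and 155 and 160 CPM in the knockout. Its groups did not overlap, but the difference was within the error of the fit (0.16, SE 0.14, unadjusted p = 0.267 and adjusted p = 1.00 by edgeR). Mcm3 read 144 and 123 CPM against 140 and 133 CPM, so its knockout values fell between the wild type ones. The 6 genes together summed to 1106 ± 28.2 CPM in wild type cells and 1137 ± 42.6 CPM in knockout cells (n = 2 each, SD).

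The ring holds 1 copy of each subunit, and their RNA levels per length can be set side by side. In CPM per kilobase of annotated exon, averaged over the 4 libraries, the order was Mcm6 at 59.6, Mcm7 at 56.2, Mcm4 at 45.8, Mcm5 at 37.3, Mcm3 at 35.9 and Mcm2 at 21.1. The ranges over libraries overlapped for Mcm6 (57.7 to 62.6) and Mcm7 (52.9 to 59.9), and for Mcm5 (34.5 to 40.1) and Mcm3 (32.7 to 38.4). The other neighbours in this order were apart in these libraries. An annotation with rarely used exons lowers a value per length, so the order holds for these exon models.

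The promoters of 38 of the 47 genes were in the RefSeq table (GRCm38.p6), and some share a feature that played no part in choosing the genes. The 250 bases before each gene's start were searched on both strands for the E2F words TTTCCCGC, TTTGGCGC, TTTCGCGC and TTTGCCGC, which can overlap each other on opposite strands. At least 1 word was in 8 of 43 windows (18.6%), against 1.86% of all 32851 windows of that length. The element CCAAT, bound by NF-Y, was in 58.1% of the windows against 33.8%. These windows had a median GC content of 61.2% against 52.4%, and the part of that in these shares was not tested. The 8 genes with an E2F word were Cdc6, Gins3, Mcm5, Mcm6, Mcm7, Orc1, Pola1 and Rfc3. Their fold changes ran from 0.01 to 0.16 with a median of 0.04. Those of the 30 others with a promoter ran from -0.23 to 0.33, with the same median of 0.04. A match is a description of letters, not of a bound site. The promoters of the MCM genes with the most matches, and that of Rfc3 with a word next to the start, are shown 5′ to 3′ with the E2F words in capitals.
Mcm6, chr1:128359706-128359955, minus strand: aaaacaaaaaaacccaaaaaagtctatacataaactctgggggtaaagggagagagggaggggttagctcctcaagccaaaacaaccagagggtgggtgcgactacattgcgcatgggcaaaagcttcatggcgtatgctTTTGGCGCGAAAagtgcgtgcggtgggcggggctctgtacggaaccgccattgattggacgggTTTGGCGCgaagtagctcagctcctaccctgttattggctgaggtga
Mcm5, chr8:75109259-75109508, plus strand: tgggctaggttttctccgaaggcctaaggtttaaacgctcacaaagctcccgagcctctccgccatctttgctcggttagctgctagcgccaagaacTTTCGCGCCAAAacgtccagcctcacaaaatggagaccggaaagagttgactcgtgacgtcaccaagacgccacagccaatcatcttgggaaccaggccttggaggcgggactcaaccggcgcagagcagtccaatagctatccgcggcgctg
Rfc3, chr5:151651209-151651458, minus strand: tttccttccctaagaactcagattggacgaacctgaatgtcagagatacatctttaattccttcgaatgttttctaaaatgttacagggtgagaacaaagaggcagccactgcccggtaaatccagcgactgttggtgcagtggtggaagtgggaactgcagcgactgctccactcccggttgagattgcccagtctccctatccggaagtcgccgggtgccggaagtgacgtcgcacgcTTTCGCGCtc

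Mcm6 holds words that begin 110, 106 and 47 bases before the start, the first pair overlapping on opposite strands. Mcm5 holds such an overlapping pair at 153 and 149 bases, and Rfc3 a word at 10 bases. These coordinates belong to the RefSeq table and not to the build used for counting.

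Genes of origin licensing showed no difference past the test, with 4 fold changes above 0 and 1 below. Cdt1, which loads the MCM ring and is destroyed once S phase begins, read 33.5 and 20.6 CPM in wild type cells and 33.1 and 26.8 CPM in the knockout. Its wild type libraries were further apart than the genotypes, and the log2 fold change of 0.15 had an interval from -0.38 to 0.68. Without wild type replicate 1 it was 0.54, and without wild type replicate 2 it was -0.15, so its direction rested on 1 library. Orc1, the ATPase subunit of the origin recognition complex, read 21.6 and 17.1 CPM against 21.2 and 20.3 CPM, values that overlapped. Orc6, the smallest subunit, read 54.0 and 67.1 CPM against 55.7 and 73.2 CPM and followed the library more than the genotype. Cdc6 was at 40.1 ± 2.74 and 40.5 ± 3.93 CPM (SD, n = 2 each). Gmnn, the inhibitor that holds Cdt1 in check, was at 30.9 ± 0.739 and 30.0 ± 6.63 CPM.

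The genes that activate the helicase were closely matched, with a median log2 fold change of 0.07 over 6 genes. Mcm10, needed to start unwinding, read 67.2 and 67.1 CPM in wild type cells and 68.9 and 73.0 CPM in the knockout. The groups did not overlap, and the fold change of 0.08 was within its error (SE 0.14, edgeR adjusted p = 1.00). Gins2, a subunit of the GINS complex, read 54.3 and 56.6 CPM against 54.4 and 64.1 CPM, with the highest value in knockout replicate 2. Cdc45, the partner of GINS, was at 51.2 ± 0.601 and 53.2 ± 3.50 CPM (SD, n = 2 each). The other GINS genes had fold changes of 0.08 (Gins1), 0.03 (Gins3) and 0.00 (Gins4). The 4 GINS proteins form a complex with 1 copy of each. Per kilobase of exon, Gins1 averaged 20.8 CPM, Gins2 14.0 and Gins3 5.49, and Gins4 ran from 18.0 to 24.1 over the libraries. Their annotated exons span 1.52, 4.10, 2.71 and 1.35 kb in that sequence, and the order holds only for these exon models. Before division by length Gins2 was the highest, at a mean of 57.4 CPM, and 67.3% of its exon bases overlap Gse1 on the opposite strand.

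Pcna, the sliding clamp that tethers polymerases to DNA, had the highest level per length of the 47 genes, at 247 CPM per kilobase. It read 524 and 590 CPM in wild type cells and 530 and 725 CPM in the knockout. Only knockout replicate 2 lay above the wild type range, and the fold change was 0.17 with an interval from -0.28 to 0.62. It was -0.07 without knockout replicate 2 and 0.38 without knockout replicate 1 (edgeR adjusted p = 0.653). The pseudogene Pcna-ps2 was listed with 594 and 651 counts in the wild type libraries and 740 and 909 in the knockout ones, so some reads may have been divided between near-identical copies.

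Of the clamp loader subunits, Rfc4 read 71.6 and 79.9 CPM against 73.6 and 89.5 CPM, with both groups overlapping. Rfc1, the large subunit, was at 133 ± 13.7 and 136 ± 17.8 CPM, and Rfc2 at 72.1 ± 2.47 and 74.0 ± 10.6 CPM (SD, n = 2 each). Rfc5 was the loader subunit with both knockout libraries low, at 68.4 and 66.7 CPM against 64.9 and 62.2 CPM. Its fold change of -0.09 had an interval from -0.40 to 0.22. Rfc3 stood at 0.06, and Dscc1, part of the alternative loader that serves sister chromatid cohesion, at 0.00 with the lowest level per length of the set, 3.28 CPM per kilobase.

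Polymerase and primase genes gave 6 fold changes above 0 and 3 below. Prim1, the catalytic primase subunit, read 59.6 and 70.8 CPM in wild type cells and 61.2 and 88.5 CPM in the knockout. Only knockout replicate 2 exceeded the wild type range, and the fold change was 0.20 (SE 0.19, edgeR unadjusted p = 0.321). Without knockout replicate 1 it was 0.44 (unadjusted p = 0.0252, adjusted p = 0.506 by edgeR), and without knockout replicate 2 it was -0.09. Its partner Prim2 read 61.7 and 67.5 CPM against 59.7 and 79.5 CPM, also highest in knockout replicate 2, with a fold change of 0.11.

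Pola1, the catalytic subunit of the polymerase that extends primers, read 159 and 186 CPM against 162 and 203 CPM, and its fold change was 0.08. Pold1, the catalytic subunit of the lagging strand polymerase, ran the other way between libraries, at 83.2 and 59.9 CPM in wild type cells and 77.3 and 56.8 CPM in the knockout. It was higher in the first than in the second library of each genotype, and the genotypes differed by -0.09 (SE 0.20). Pole, the leading strand polymerase, was at 75.7 ± 10.9 and 77.8 ± 7.29 CPM (SD, n = 2 each). Accessory subunits lay close to 0, from -0.07 for Pola2 and Pold2 to 0.04 for Pold3 and Pole2.

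The 3 subunits of RPA, which coats single-stranded DNA, had 2 fold changes above 0 and 1 below, each with an interval that covered 0. Rpa3, the smallest, read 30.1 and 32.7 CPM in wild type cells and 32.8 and 46.2 CPM in the knockout. Knockout replicate 1 was level with the higher wild type library, and the difference lay in knockout replicate 2. The fold change of 0.33 (SE 0.20) carried the smallest p of the 47 genes, an unadjusted 0.124 by edgeR. It was 0.56 without knockout replicate 1 (unadjusted p = 0.0138, adjusted p = 0.434 by edgeR) and 0.06 without knockout replicate 2. Rpa2, the subunit that is phosphorylated under replication stress, read 74.7 and 71.6 CPM against 62.8 and 68.7 CPM. Both knockout values were lower, with a fold change of -0.15 and an interval from -0.47 to 0.16. Rpa1, the large DNA-binding subunit, read 139 and 142 CPM against 138 and 168 CPM.

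Lig1, the ligase that seals Okazaki fragments, was higher in both knockout libraries, without passing the test. It read 86.1 and 79.5 CPM in wild type cells and 97.0 and 94.8 CPM in the knockout, 82.8 ± 4.67 against 95.9 ± 1.51 CPM (SD, n = 2 each). The fold change was 0.21 with an interval from -0.09 to 0.52 (edgeR unadjusted p = 0.153, adjusted p = 1.00). Fen1, the nuclease that trims the flaps before ligation, had a fold change of 0.00, at 80.8 and 80.9 CPM against 77.7 and 84.4 CPM. Rnaseh2a, the catalytic subunit of the enzyme that removes RNA from DNA, read 35.6 and 28.8 CPM against 28.3 and 33.6 CPM, with a fold change of -0.06.

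Nucleotide supply was the single role group whose summed level had a lower mean in the knockout, 1043 ± 28.4 CPM in wild type cells and 1014 ± 31.3 CPM in knockout cells (n = 2 each, SD), and the groups overlapped. Of its 5 genes, 4 had fold changes above 0 and 1 below, with a median of 0.01. Rrm2, the regulated small subunit of ribonucleotide reductase, had the lowest fold change of the set. It read 334 and 340 CPM in wild type cells and 322 and 252 CPM in the knockout, so most of the difference lay in knockout replicate 2. The fold change was -0.23 (SE 0.17, edgeR unadjusted p = 0.213). It was -0.42 without knockout replicate 1 (unadjusted p = 0.0386, adjusted p = 0.565 by edgeR) and -0.06 without knockout replicate 2 (unadjusted p = 0.747). In that library Rrm2 went against most of the replication genes, since knockout replicate 2 was the highest library for 31 of the 47. Rrm2 was not alone, as Pold1, Pola2 and Rfc5 were also lowest in that library.

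Rrm1, the large subunit of the same enzyme, read 475 and 489 CPM against 459 and 536 CPM, with knockout replicate 2 on the high side. Per kilobase of exon Rrm2 averaged 113 CPM and Rrm1 44.5, over 2.77 and 11.0 kb of annotated exon. Before division by length Rrm1 was the higher, at a mean of 490 CPM against 312 CPM, so this order holds only for these exon models. Tyms, which makes thymidylate, read 68.4 and 84.0 CPM against 70.3 and 89.0 CPM, a larger gap between libraries than between genotypes. Tk1, the S phase thymidine kinase, and Dut, which removes dUTP, had fold changes of 0.01 and 0.00.

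The 3 genes of histone supply and chromatin assembly had fold changes above 0, and none passed the test. Slbp, which binds the stem-loop at the end of histone messages, read 70.3 and 79.8 CPM in wild type cells and 77.6 and 89.4 CPM in the knockout. The groups overlapped, with a fold change of 0.15 and an interval from -0.18 to 0.49. Chaf1a, the large subunit of chromatin assembly factor 1, read 90.4 and 72.8 CPM against 87.3 and 88.8 CPM. Its partner Chaf1b was at 39.7 ± 1.09 and 41.6 ± 2.06 CPM (SD, n = 2 each).

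**Figure D3:**
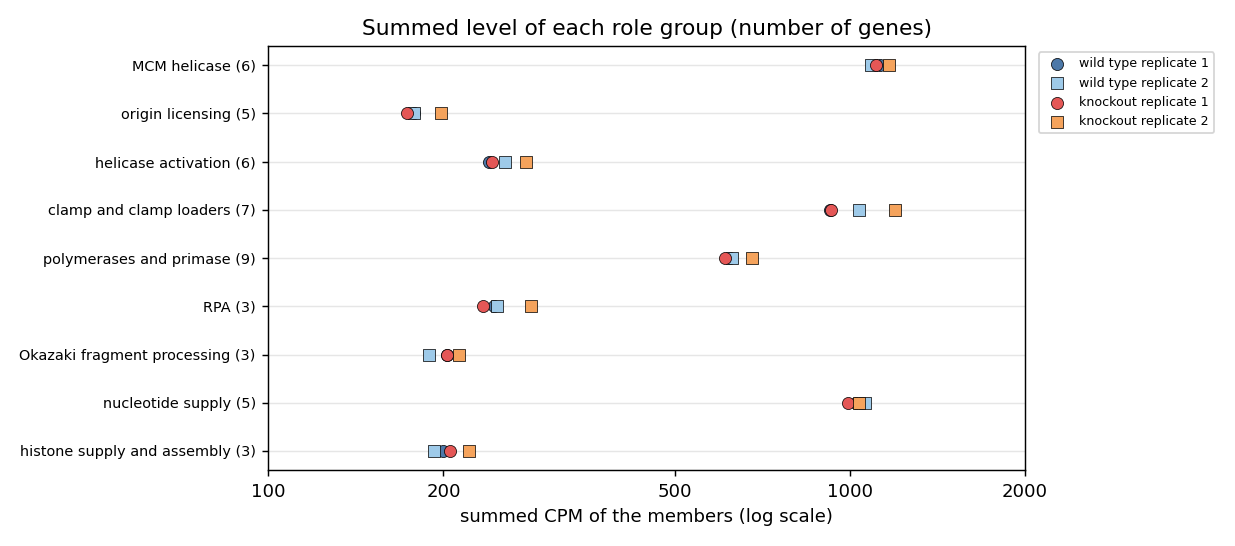
Summed CPM of the genes in each role group (x axis, log scale) in the 4 libraries, with the number of genes in brackets. In 8 of the 9 groups knockout replicate 2 has the highest sum, and the groups overlap except in histone supply and assembly and, by 0.53 CPM, in Okazaki fragment processing.

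Summed over all 47 genes, the level was 4818 ± 81.9 CPM in wild type cells and 4981 ± 408 CPM in knockout cells (n = 2 each, SD). The knockout mean was 103% of the wild type mean, and the knockout libraries differed more from each other than the means did. By group, the knockout mean ran from 97.2% of the wild type for nucleotide supply to 109% for histone supply and assembly. As a share of all counts, the 47 genes took between 0.474% and 0.499% in the 4 libraries.

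Differences between libraries of the same genotype moved with base composition. The 47 genes spanned 34.2% to 61.0% GC in their longest annotated transcript, with a median of 48.9%, close to the 48.6% of all genes tested. Across the 47 genes the difference between the wild type libraries, replicate 2 minus replicate 1, had a Pearson r of -0.62 with GC, and that between the knockout libraries one of -0.50. For the genotype difference it was -0.38. The genes share the libraries and their depth, so these correlations describe the libraries and carry no p. Over all genes tested the corresponding values were -0.23, -0.16 and -0.10. The first 2 of these used log2 CPM with a prior count of 2, where the 47 genes had plain CPM. All genes tested also had a lower median level, 11.1 CPM against 69.3 CPM, and the part of this in the weaker values was not tested. Among the 16 genes lowest in GC, up to 46.7%, wild type replicate 2 was above replicate 1 for 15 and knockout replicate 2 above replicate 1 for 14. Among the 16 highest in GC, from 50.9%, these counts were 5 and 10. With each library's GC trend removed, a fit chosen after seeing the data, 0 of the 47 genes were called by edgeR, 0 had an unadjusted p under 0.05, and the median was 0.06.

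**Figure D4:**
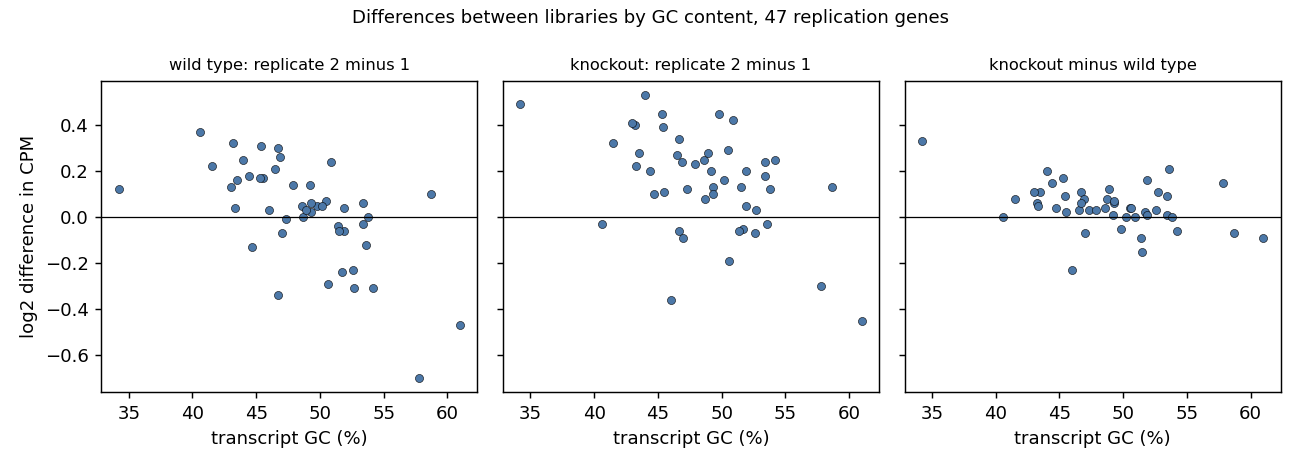
Log2 difference in CPM for the 47 replication genes (y axis) against the GC content of the longest transcript in percent (x axis), within the wild type, within the knockout, and between the genotypes. The slope is downward in each panel, with r of -0.62, -0.50 and -0.38. The genotype differences are fitted over all libraries and the others compare single libraries, so the spreads of the panels cannot be compared.

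A second list of 53 other replication genes, of which 52 had a single identifier in the files and all 52 passed the low-count filter, held no call either. By edgeR 0 were called, 35 fold changes were above 0 and 17 below, and the median was 0.05. Pold4, the smallest subunit of its polymerase, was the 1 gene with an unadjusted p under 0.05 (2.77% of all genes tested), at 3.25 and 4.51 CPM in wild type cells and 2.48 and 2.24 CPM in the knockout (-0.72, SE 0.32, unadjusted p = 0.0478, adjusted p = 1.00). Ccne2, a cyclin of S phase entry, read 87.2 and 94.8 CPM against 97.5 and 129 CPM, with a fold change of 0.31 (SE 0.16). Orc3, another origin recognition subunit, was at 0.21 (SE 0.15). A list of other cell cycle genes held 0 calls among 10 genes, with a median of 0.04. Of their fold changes 6 were above 0, those of Mki67, Top2a and Ccna2 among them, and 4 were below. Mki67, a marker of dividing cells, read 428 and 622 CPM in wild type cells and 489 and 663 CPM in the knockout.

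Exons of 18 of the 47 genes overlap those of another gene in the annotation used. The overlap covers most exon bases of Fen1 (78.8%, antisense Gm10143), Gins2 (67.3%, Gse1) and Chaf1a (52.5%, Ubxn6), each on the opposite strand. The labels do not say whether reads were counted by strand, so for these 3 genes reads of the partner may be counted too or reads in the overlap lost.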

How the data were processed

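RNA was extracted with TRIzol and prepared with a NEBNext Ultra kit, per the labels' protocols. The deposited values are raw read counts per Ensembl gene, 1 file per library. STAR 2.7.10, featureCounts and GRCm39 were used, per the submitters' processing notes. Symbols matched 52081 of 55414 identifiers in GENCODE M21. That release (GRCm38) also gave exon lengths, overlaps and GC content, from an earlier build than the counts.

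After edgeR's filterByExpr (minimum count 10), 19912 genes were tested with the quasi-likelihood F test of edgeR 4.0.16 under R 4.3.3 (TMM, robust=TRUE, legacy=TRUE), with Benjamini-Hochberg adjustment. Standard errors divide the log2 fold change by the square root of F. The test was checked on simulated counts. Replicate libraries differed by more than sampling noise in a chi-square comparison of counts (16.6 per degree of freedom within the wild type, 26.3 within the knockout).

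The members, lists and tests were chosen with earlier results of these data known. Per-library values are given for the 2 members of each role group with the smallest p, the most abundant one, and any with an unadjusted p under 0.05 in a fit without 1 library. The 4 genes of the second list with the smallest p were chosen for naming, of which 1 is not reported here. Rfc5, Fen1, Pold1 and Mki67 were added after their values were seen. Alternatives were RLE or no scaling factors, 2 other filters, DESeq2 1.42.0, limma-voom (limma 3.58.1), legacy=FALSE, the replicate number as a block and leaving out each library. Removal of each library's GC trend (spline with 5 degrees of freedom, 98.5% of genes with a value), alone and with the block, was added after seeing the data.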

Additional observations from a re-analysis of the deposited data

How the results depend on the processing

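No replication gene was called in any of the 14 alternative fits. The number of all genes called, 1 in the reported fit, was 41 without a low-count filter, 6 with DESeq2, and between 1 and 47 without single libraries, where a library left alone in its group is taken to vary as much as the rest. The labels do not say that replicate numbers mark pairs. Deviations from the group means of same-numbered libraries had a correlation of 0.23 over all genes tested, in log2 CPM with a prior count of 2. Across the 47 replication genes, in plain CPM, the differences between libraries in the 2 genotypes had an r of 0.70. With the replicate number as a block, 9 genes were called, and 73 with the block and the GC trend removed. Among the replication genes Rpa3 and Lig1 then had an unadjusted p under 0.05, and Lig1 with the GC trend removed too, beside 7.83% and 7.61% of all genes tested. The smallest adjusted p of the replication genes was 0.566 and 0.535 in those fits. The median fold change of the replication genes was -0.06 without knockout replicate 2, and ran from -0.06 to 0.12 without single libraries. In the scaling alternatives it was 0.05 (RLE) and 0.02 (library totals), with 39 and 33 genes positive. Genes whose groups did not overlap, 7 in all with 4 libraries, numbered 17 to 37 without single libraries, since 3 libraries overlap less readily (57.7% to 71.1% of all genes tested). Without knockout replicate 1, 32 were higher and 5 lower in the knockout (33.9% and 37.3% of all genes). Without knockout replicate 2, 4 were higher and 20 lower (29.5% and 29.7%). Of 658 fold changes of single replication genes over the alternatives, 629 moved by less than the standard error and 29 by more, each of these without 1 library. With 2 libraries a group, 95% intervals lay inside 1.5-fold for 42 of the 47 genes and inside 1.25-fold for 1.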
